A study of Mus musculus with 9 samples.

Results

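The 33 genes described here encode the enzymes that build nucleotides and turn them into the precursors of DNA. They were taken as a fixed list of gene symbols, which was chosen with earlier results of these data known. It covers the de novo purine route, the de novo pyrimidine route, the supply of deoxynucleoside triphosphates (dNTPs) and the salvage of bases and nucleosides. All 33 were found among the 15552 genes of the deposited count table, and all 33 passed the filter on low counts that left 11373 genes tested. Of the 33, 12 belong to the de novo purine route, 6 to the de novo pyrimidine route, 9 to dNTP supply and 6 to salvage.

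The samples were 9 libraries of MyC-CaP, a cell line grown from a prostate tumor of a mouse that carries a human MYC transgene under a prostate-specific probasin promoter. Cells were starved in medium without serum and calcium for 6 to 12 h and were then given recombinant NRG1 at 15 ng/mL, a growth factor that binds the receptor HER3, for 0, 12 or 24 h, with 3 libraries at each time. The 0 h libraries carry the same NRG1 label and are the starting point of the series. No library kept in starvation medium without NRG1 for 12 or 24 h was analysed here, so time in the medium and time with NRG1 cannot be told apart. All libraries come from 1 cell line plated in triplicate wells, and the p-values measure the spread between these libraries. In bulk RNA, a change in the share of cells in one phase of the cell cycle and a change in RNA per cell cannot be told apart.

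Purine nucleotides are assembled on a ribose phosphate made by the PRPP synthetases, and inosine monophosphate, the product of the route, is then turned into AMP or GMP. Pyrimidines are built as a ring first, joined to PRPP and converted to UMP and CTP. Ribonucleotide reductase turns ribonucleotides into deoxyribonucleotides, thymidylate synthase adds the methyl group of thymine with a folate donor, and dUTPase keeps uracil out of DNA. Many of the dNTP enzymes are made mainly while cells copy their DNA, whereas the de novo routes also feed RNA synthesis.

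Total counts ran from 28467089 to 39239760 per library, and replicates of a time correlated at 0.995 to 0.996 (Pearson's r of log2 CPM across genes, where CPM is the count scaled to library size by TMM). Mitochondrial genes held 1.41% to 1.498% of the counts in the 0 h libraries, 1.12% to 1.18% at 12 h and 1.21% to 1.36% at 24 h, so the share was lower in every later library, and its part in the results was not tested. The label calls the cells epithelial-like. Of the luminal epithelial markers, Krt18 stood at 0.253 CPM at 0 h, Cdh1 at 0.0824 CPM and Epcam at 0 in every 0 h library. Krt8, the partner of Krt18, was the only luminal marker that passed the test, with 18.2 CPM before NRG1, 22.3 CPM after 12 h and 23.1 CPM after 24 h. Of the fibroblast markers Pdgfra was at 16.8 CPM at 0 h and Col1a1, Col1a2 and Dcn were under 0.5 CPM in all 9 libraries. The summed level of 3 leukocyte markers lay between 0.39 and 1.05 CPM per library and that of 3 endothelial markers between 0 and 0.299 CPM.

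Before NRG1 the 33 genes ranged from 2.05 to 252 CPM per kb of exon. The lowest value, that of Nme2, is uncertain, because 48.9% of its exonic bases also belong to a read-through gene on the same strand. Hprt, the salvage enzyme for hypoxanthine and guanine, had the highest level at 252 CPM per kb of exon, followed by Dut (dUTPase, 131 CPM per kb), Aprt (adenine salvage, 124 CPM per kb), Paics (a de novo purine enzyme with 2 activities, 111 CPM per kb) and Impdh2 (the first step toward GMP, 106 CPM per kb). The lowest were Nme2 at 2.05, Tyms (thymidylate synthase) at 2.54, Rrm2b at 3.395, Dhodh at 4.15 and Tk1 (thymidine kinase) at 4.33 CPM per kb. The reductase subunits were unequal on this scale, with Rrm2 at 69.2 and Rrm1 at 7.03 CPM per kb. The length is that of all annotated exons of a gene together, which overstates the transcript where many isoforms are annotated.

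**Figure D1:**
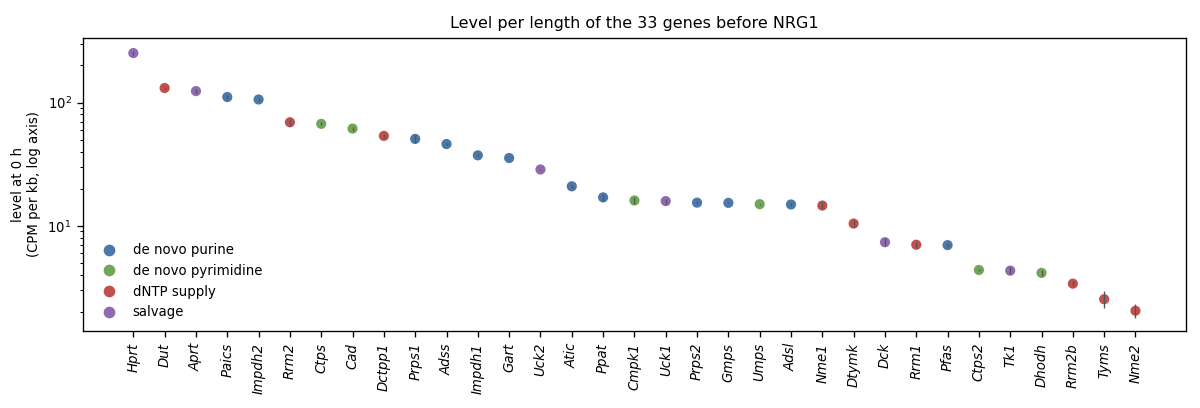
Level of the 33 genes at 0 h, in CPM per kb of annotated exon on a log axis, ordered from high to low and colored by role. Points are means and bars the SD over 3 libraries. Hprt leads at 252 CPM per kb and Nme2 is lowest at 2.05 CPM per kb.

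To determine which of these enzymes changed with NRG1, each time was compared with 0 h by edgeR's quasi-likelihood test fitted on all 9 libraries. A gene passed when its Benjamini-Hochberg adjusted p over all tested genes was at most 0.05. At 12 h, 12 of the 33 rose, where 13.6% of all tested genes did, and 2 fell, where 11.9% did. At 24 h, 9 rose against 9.67% of all tested genes, and 3 fell against 7.76%. The median log2 fold change of the 33 was 0.07 at 12 h and 0.03 at 24 h, and that of all tested genes was -0.0028 and -0.0065. The study's further requirement of a 1.5-fold change was met by 3 members at 12 h (Rrm1, Rrm2 and Dck), where 2.29% of all genes met it, and by 3 at 24 h (Rrm1, Rrm2 and Tk1), where 2.27% did. The 12 h and 24 h comparisons share the 0 h libraries, so their values are given side by side and not as 2 separate results.

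By role, dNTP supply and salvage genes made up most of the members that rose. Of the 9 dNTP supply genes, 6 rose at 12 h and 6 at 24 h, and none fell at either time by edgeR, by DESeq2 or at an unadjusted p under 0.05. Of the 6 salvage genes, 4 rose at 12 h and 2 at 24 h. Of the 12 de novo purine genes 1 rose and 1 fell at 12 h, and 2 fell and 0 rose at 24 h (0 by DESeq2 and 1 at an unadjusted p under 0.05). Of the 6 de novo pyrimidine genes 1 rose and 1 fell at each time. The median log2 fold change at 12 h was 0.28 for dNTP supply, 0.15 for salvage, 0.0096 for de novo purine and 0.0038 for de novo pyrimidine genes, and at 24 h it was 0.26, 0.073, -0.013 and 0.015. A test of any difference among the 3 times passed for 16 of the 33, where 27.4% of all genes passed, and these were 7 of the dNTP supply, 4 of the salvage, 3 of the purine and 2 of the pyrimidine genes.

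**Figure D2:**
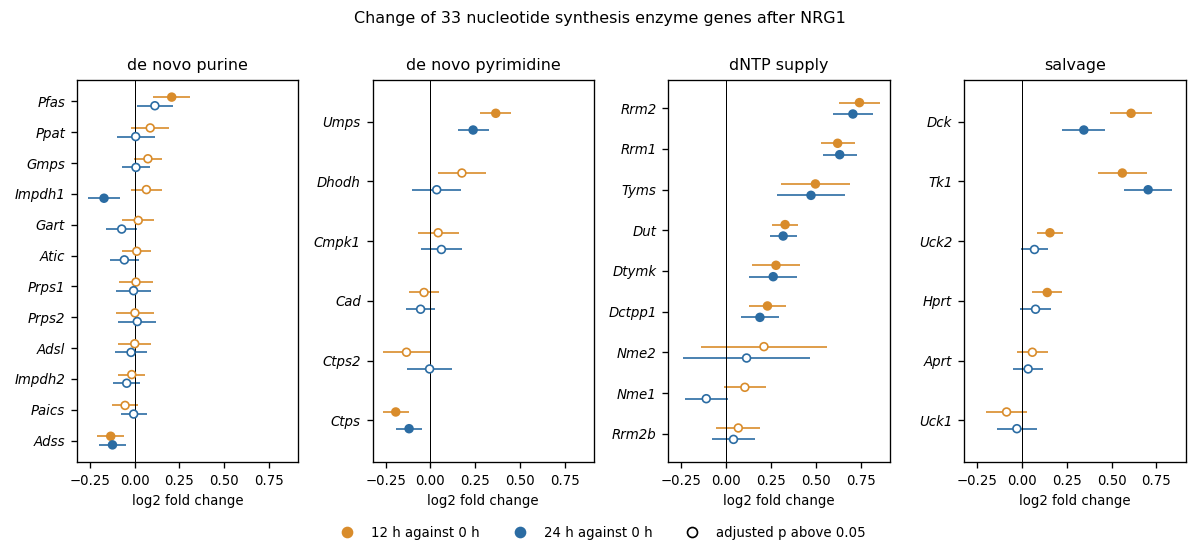
Log2 fold change of each of the 33 genes at 12 h (orange) and 24 h (blue) against 0 h, in 4 panels by role. Bars are 95% intervals from edgeR, filled points have an adjusted p at most 0.05 and open points do not. The largest rises at 12 h, Rrm2 at 0.74 and Rrm1 at 0.62, lie in the dNTP panel. Tk1 in the salvage panel is at 0.70 at 24 h, and the purine panel stays between -0.17 and 0.21.

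Rrm2 had the largest log2 fold change of the 33 at both times. Rrm2 (chr12:24708241-24714146, plus strand, GRCm38), the small subunit that holds the radical and is made in S phase, was at 178, 198 and 198 CPM in the 3 libraries of 0 h, at 321, 344 and 298 CPM at 12 h and at 320.1, 296.5 and 322 CPM at 24 h. Every library with NRG1 lay above every 0 h library. The log2 fold change was 0.74 ± 0.054 (SE, n = 3 per time, adjusted p = 1.44e-07 in edgeR) at 12 h and 0.71 ± 0.054 (adjusted p = 2.94e-07 in edgeR) at 24 h, or 1.67-fold and 1.63-fold. Rrm1 (chr7:102441695-102469771, plus strand), the large subunit with the catalytic and regulatory sites, was at 72.7, 77.7 and 81.7 CPM at 0 h, 118, 119.9 and 119 CPM at 12 h and 119.9, 115 and 125 CPM at 24 h. These values did not overlap with 0 h either, and the log2 fold change was 0.62 ± 0.045 (adjusted p = 1.44e-07 in edgeR) at 12 h and 0.63 ± 0.045 (adjusted p = 1.96e-07 in edgeR) at 24 h. Rrm2b, the p53-inducible small subunit that serves cells outside S phase, was at 30.7, 32.7 and 29.6 CPM at 0 h, 31.5, 31.5 and 34.7 CPM at 12 h and 31.0, 31.5 and 33.1 CPM at 24 h. Its 3 groups overlapped, and the 95% interval of its log2 fold change ran from -0.055 to 0.19 at 12 h and from -0.081 to 0.16 at 24 h. Of the exonic bases of Rrm2b 8.04% are shared with a gene on the other strand, and whether reads were counted by strand was not given in the sources used here.

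The thymidylate route rose as well. Tyms was at 12.8, 15.9 and 17.7 CPM at 0 h, 21.5, 23.4 and 20.9 CPM at 12 h and 20.9, 21.3 and 22.6 CPM at 24 h. The groups did not overlap, although the 0 h libraries were spread more widely (SD 2.47 CPM) than those of 12 h (1.29 CPM) and 24 h (0.892 CPM). The log2 fold change was 0.50 ± 0.090 at 12 h (adjusted p = 0.000687 in edgeR) and 0.47 ± 0.090 at 24 h (adjusted p = 0.00141 in edgeR). Dut, which splits dUTP to the dUMP that thymidylate synthase uses, was at 318, 309.5 and 320.3 CPM at 0 h, 387, 405 and 398.5 CPM at 12 h and 396, 382 and 404 CPM at 24 h. It rose without overlap by 0.33 ± 0.035 at 12 h (adjusted p = 6.51e-06 in edgeR) and 0.32 ± 0.035 at 24 h (adjusted p = 8.66e-06 in edgeR) on the log2 scale. Dtymk, the kinase that turns dTMP into dTDP, rose from 27.4 ± 1.94 to 33.3 ± 1.79 and 32.95 ± 1.71 CPM (SD, n = 3), and its edgeR adjusted p was 0.00387 at 12 h and 0.00804 at 24 h. Dctpp1, a pyrophosphatase that clears excess and modified dCTP, rose from 36.3 ± 1.64 to 42.6 ± 1.56 and 41.3 ± 0.659 CPM (adjusted p = 0.00255 in edgeR at 12 h and 0.0142 at 24 h). The 24 h call for Dctpp1 was lost without replicate 1 of 0 h (log2 fold change 0.16) and without replicate 2 of 24 h (0.18).

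Nme1 and Nme2, the nucleoside diphosphate kinases that add the last phosphate, did not pass against 0 h at either time. Nme1 was at 45.6, 48.6 and 52.1 CPM at 0 h, 51.4, 55.0 and 51.0 CPM at 12 h and 43.8, 43.7 and 47.9 CPM at 24 h, so the 0 h libraries overlapped with both later groups. Nme2 was at 2.55, 2.05 and 2.58 CPM at 0 h, 2.65, 2.93 and 2.71 CPM at 12 h and 2.72, 2.12 and 2.88 CPM at 24 h. At this low level its 95% interval at 12 h, from -0.14 to 0.56, was the widest of the members that did not pass. Both values are uncertain. These related genes are neighbors, and 48.9% of the exonic bases of Nme2 and 12.5% of those of Nme1 also belong to an annotated read-through gene on the same strand. Multimapping settings were not given in the sources used here, and the effect on either value was not tested.

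**Figure D3:**
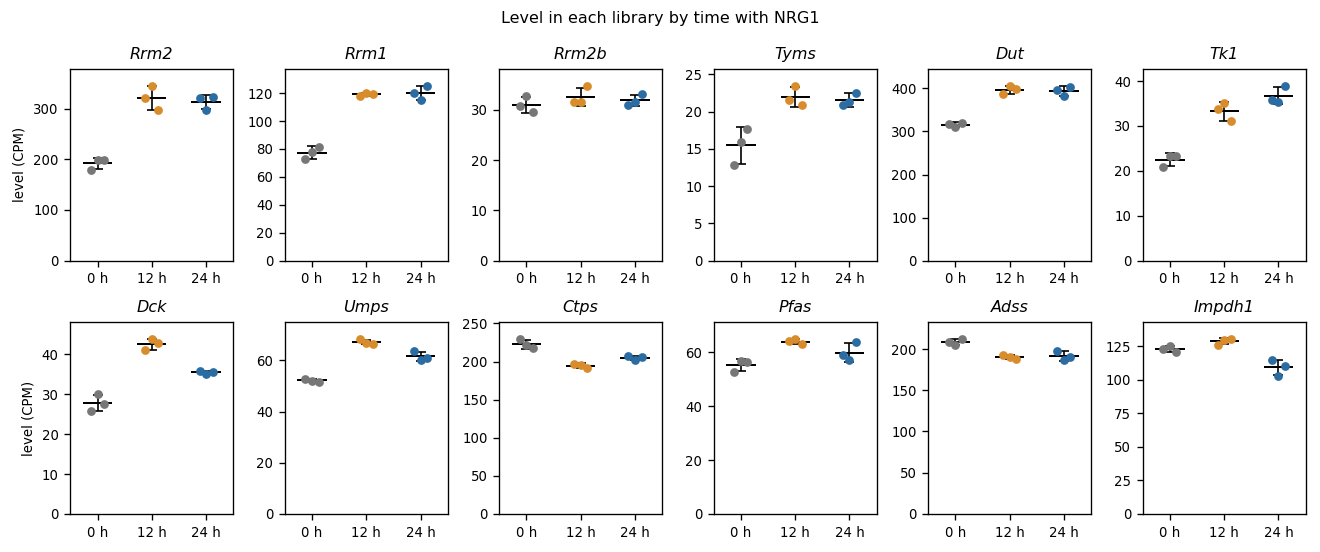
Level of 12 of the genes in each library, in CPM, by time with NRG1. Points are libraries, horizontal lines means and bars the SD over 3 libraries, and each axis starts at 0. Rrm2, Rrm1, Tyms, Dut, Tk1, Dck and Umps sit above 0 h at both later times, Ctps and Adss sit below it, Rrm2b overlaps at every time and Impdh1 lies below 0 h at 24 h.

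The promoters of genes that moved were set beside those of genes that did not. RefSeq's promoter windows (GRCm38.p6, 250 bases before to 50 bases after each start) covered 30 of the 33 members, and not Rrm2b, Pfas and Dhodh. The 150 bases before the start are shown for the 2 reductase genes with the largest rise, for Tyms, and for 2 purine genes, Gart and Prps1, that did not pass at either time. They lie at chr7:102441545-102441694 (Rrm1, plus strand), chr12:24708104-24708253 (Rrm2, plus), chr5:30073626-30073775 (Tyms, minus), chr16:91646973-91647122 (Gart, minus) and chrX:140456453-140456602 (Prps1, plus), and are written 5′ to 3′ on the strand of the gene. Capitals mark CCAAT in Rrm1, Rrm2, Gart and Prps1 and the E-box CACGTG in Tyms.
Rrm1: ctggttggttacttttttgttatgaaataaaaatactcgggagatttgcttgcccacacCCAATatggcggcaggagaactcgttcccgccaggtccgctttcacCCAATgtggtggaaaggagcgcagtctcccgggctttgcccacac
Rrm2: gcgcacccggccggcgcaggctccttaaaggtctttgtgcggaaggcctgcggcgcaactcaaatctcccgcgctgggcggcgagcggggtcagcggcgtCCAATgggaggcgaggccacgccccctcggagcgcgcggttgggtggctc
Tyms: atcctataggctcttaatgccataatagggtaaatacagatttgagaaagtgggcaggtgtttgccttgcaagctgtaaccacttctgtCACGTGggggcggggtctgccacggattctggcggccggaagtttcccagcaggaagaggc
Gart: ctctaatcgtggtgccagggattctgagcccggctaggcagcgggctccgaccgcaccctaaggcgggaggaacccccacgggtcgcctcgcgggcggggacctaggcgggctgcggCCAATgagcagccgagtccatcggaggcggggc
Prps1: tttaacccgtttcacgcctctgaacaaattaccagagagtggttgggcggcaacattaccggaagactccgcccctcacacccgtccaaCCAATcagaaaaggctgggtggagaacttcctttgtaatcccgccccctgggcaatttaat
CCAAT begins 91 and 45 bases before the start in Rrm1, 50 before it in Rrm2, 33 before it in Gart and 61 before it in Prps1. It was absent from the 300-base windows of Tyms, Dut, Tk1, Dck and Umps, which rose at both times. The purine genes Prps2, Ppat, Adsl and Gmps, which did not pass against 0 h, lacked it as well. So it occurred in some genes that rose and in some that did not, and was absent from others of both kinds. On both strands of the whole 300-base window, CCAAT was found in 11 of the 30 members (36.7%) and in 43.8% of the 9089 tested genes with a window. It was found in 11 of 14 replication genes with a window (78.6%). By role it was in 4 of 8 dNTP supply, 5 of 11 purine, 1 of 5 pyrimidine and 1 of 6 salvage genes. CACGTG, a palindrome that MYC family proteins can bind, was found in 6 of the 30 (20.0%), in 12.1% of the tested genes and in none of the 14 replication genes. The 6 were Tyms and Dtymk, which rose, and Nme1, Atic, Paics and Impdh2, which did not pass against 0 h. The words TTTCCCGC, TTTCGCGC, TTTGCCGC and TTTGGCGC, which match the E2F motif, were found in 2 of the 30, the purine genes Ppat and Prps2, in none of the 8 dNTP supply genes with a window, in 4.90% of the tested genes and in 8 of the 14 replication genes (57.1%). Only these exact words were searched, so near matches were not counted. These matches describe letters in a window and no binding was measured.

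Among the salvage enzymes the 2 deoxynucleoside kinases rose the most. Tk1 (chr11:117815526-117826092, minus strand), which phosphorylates thymidine, was at 20.9, 23.2 and 23.4 CPM at 0 h, 33.7, 35.0 and 31.0 CPM at 12 h and 35.8, 35.4 and 38.8 CPM at 24 h. The later groups lay above 0 h without overlap, with log2 fold changes of 0.56 ± 0.064 at 12 h (adjusted p = 1.04e-05 in edgeR) and 0.70 ± 0.063 at 24 h (adjusted p = 1.15e-06 in edgeR). Dck (chr5:88764996-88783281, plus strand), which phosphorylates deoxycytidine and purine deoxynucleosides, was at 25.9, 30.01 and 27.6 CPM at 0 h, 41.0, 43.7 and 42.9 CPM at 12 h and 35.8, 35.0 and 35.5 CPM at 24 h. All 3 groups of Dck were apart, with 24 h between the other two, and the log2 fold change was 0.61 ± 0.056 at 12 h (adjusted p = 1.64e-06 in edgeR) and 0.35 ± 0.056 at 24 h (adjusted p = 0.000382 in edgeR).

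The ribonucleoside and base salvage enzymes moved less. Uck2, a uridine-cytidine kinase, was at 155, 156 and 158 CPM at 0 h, 178, 177.5 and 168 CPM at 12 h and 163, 163 and 166 CPM at 24 h. It rose at 12 h by 0.16 ± 0.035 on the log2 scale (adjusted p = 0.00373 in edgeR) and did not pass at 24 h (0.07, adjusted p = 0.199 in edgeR). Its relative Uck1 was at 45.7, 41.8 and 43.4 CPM at 0 h, 41.0, 42.6 and 39.6 CPM at 12 h and 45.5, 40.8 and 42.0 CPM at 24 h, with overlapping groups and a log2 fold change of -0.086 at 12 h. Hprt was at 313.5, 321 and 339 CPM at 0 h, 346, 372.5 and 355 CPM at 12 h and 341, 333 and 352 CPM at 24 h. Its rise at 12 h was 0.14 ± 0.040 (adjusted p = 0.0159 in edgeR), a call that was lost without replicate 1 of 0 h (0.12) and without replicate 2 of 12 h (0.11). Aprt did not pass, with 199.9 ± 8.41, 208 ± 2.64 and 205 ± 8.34 CPM at the 3 times (SD, n = 3).

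In the pyrimidine route the last step to UMP and the step to CTP went in opposite directions. Umps (chr16:33954782-33967038, minus strand), which joins orotate to PRPP and makes UMP, was at 52.7, 52.1 and 51.7 CPM at 0 h, 68.2, 66.8 and 66.5 CPM at 12 h and 63.7, 60.2 and 60.8 CPM at 24 h. It lay above 0 h in all 6 later libraries and rose by 0.36 ± 0.041 at 12 h (adjusted p = 9.08e-06 in edgeR) and 0.24 ± 0.041 at 24 h (adjusted p = 0.000603 in edgeR) on the log2 scale. Another gene on the other strand shares 6.11% of its exonic bases. Ctps, the CTP synthase that turns UTP into CTP, was at 229, 221 and 217.5 CPM at 0 h, 197, 196 and 191 CPM at 12 h and 207, 202 and 206 CPM at 24 h. It lay below 0 h in all 6 later libraries, with log2 fold changes of -0.19 ± 0.035 at 12 h (adjusted p = 0.000626 in edgeR) and -0.12 ± 0.035 at 24 h (adjusted p = 0.0245 in edgeR). The 24 h call for Ctps was lost without replicate 1 of 0 h (-0.099), replicate 2 of 0 h (-0.12) and each of the 24 h replicates in turn (-0.12, -0.10 and -0.12).

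The other pyrimidine genes did not pass. Ctps2, the second CTP synthase, was at 20.3, 20.6 and 21.1 CPM at 0 h, 18.04, 18.8 and 19.8 CPM at 12 h and 20.6, 21.2 and 20.1 CPM at 24 h. Its 12 h libraries lay below 0 h, but the log2 fold change of -0.13 did not pass (adjusted p = 0.121 in edgeR). Cad, the protein with the first 3 activities of the route, was at 502.5 ± 17.5, 490.3 ± 19.2 and 484 ± 9.80 CPM, and its 95% interval at 12 h ran from -0.12 to 0.046. Dhodh, the mitochondrial step, was at 28.1, 25.4 and 25.3 CPM at 0 h and at 30.2, 30.2 and 28.4 CPM at 12 h. Its log2 fold change of 0.18 fell just short of passing (adjusted p = 0.0545 in edgeR), and the call was made without replicate 1 of 0 h (0.22), replicate 3 of 12 h (0.21), replicate 2 of 24 h (0.18) or replicate 3 of 24 h (0.17), and with no filter on low counts (0.18). Cmpk1, the UMP and CMP kinase, was at 54.9 ± 3.396, 56.5 ± 3.89 and 57.2 ± 0.482 CPM.

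Most de novo purine genes did not pass at either time. At 12 h 10 of the 12 did not pass, with log2 fold changes from -0.053 (Paics) to 0.087 (Ppat), and their 95% intervals lay between -0.13 and 0.19. At 24 h 10 did not pass, and their intervals lay between -0.16 and 0.22. None of these intervals reached a 1.5-fold change, which is 0.585 on the log2 scale. Rrm1 and Rrm2 were changed by more than the outer bound of any of these intervals at both times. The call for Ppat, the committed step, was made at 12 h without replicate 3 of 0 h (0.16), and that for Gmps, which makes GMP, without replicate 3 of 12 h (0.11).

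The 3 purine genes that passed differed in direction. Pfas, the fourth step of the route, was at 52.7, 56.9 and 56.4 CPM at 0 h, 64.0, 64.7 and 63.0 CPM at 12 h and 58.8, 57.0 and 63.7 CPM at 24 h. It rose at 12 h by 0.21 ± 0.048 on the log2 scale (adjusted p = 0.00481 in edgeR) and had 0.11 ± 0.048 at 24 h (adjusted p = 0.125 in edgeR). Adss, which commits inosine monophosphate to AMP, was at 209, 205 and 212 CPM at 0 h, 193, 190.0 and 188 CPM at 12 h and 198, 187 and 190.1 CPM at 24 h. All later libraries lay below 0 h, and it fell by 0.13 ± 0.035 at 12 h (adjusted p = 0.0102 in edgeR) and by 0.12 ± 0.035 at 24 h (adjusted p = 0.0215 in edgeR) on the log2 scale. The 12 h call for Adss was lost without replicate 3 of 0 h (-0.12), and the 24 h call without that library (-0.11), replicate 2 of 24 h (-0.10) or replicate 3 of 24 h (-0.12).

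Impdh1, an inosine monophosphate dehydrogenase on the branch to GMP, was at 123, 125 and 121 CPM at 0 h, 126, 129.8 and 130.0 CPM at 12 h and 114.5, 103 and 110.0 CPM at 24 h. The 12 h libraries lay above 0 h without passing (0.066, adjusted p = 0.267 in edgeR) and the 24 h libraries below it, at -0.17 ± 0.041 (adjusted p = 0.00821 in edgeR). The 24 h call was lost without replicate 2 of 24 h (-0.13). Its partner isoform Impdh2 was at 333, 318 and 325 CPM at 0 h, 330.5, 325.0 and 310.1 CPM at 12 h and 316, 312 and 319 CPM at 24 h, with overlapping groups and an edgeR adjusted p of 0.789 at 12 h and 0.449 at 24 h.

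The remaining purine genes kept their levels within overlapping groups or without passing. Prps1, a PRPP synthetase, was at 97.5, 96.5 and 109 CPM at 0 h, 101.5, 100.0 and 103 CPM at 12 h and 98.9, 100.2 and 103 CPM at 24 h. Prps2, its relative, was at 59.3, 58.1 and 61.7 CPM at 0 h, 60.8, 62.1 and 56.3 CPM at 12 h and 62.8, 57.0 and 61.1 CPM at 24 h. The groups of both overlapped. Mean levels at 0 h were 348 CPM for Paics, 182 CPM for Gart (3 steps of the route in 1 protein), 167 CPM for Atic (the last 2 steps), 124 CPM for Gmps, 83.9 CPM for Adsl (a lyase used at 2 steps) and 75.2 CPM for Ppat. Paics and Ppat start close to each other on opposite strands, and 8.67% and 6.15% of their exonic bases overlap. For Gart, 19.7% of the exonic bases lie opposite an antisense gene.

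To see whether levels moved between the later times, 24 h was compared with 12 h. Of the 33 none rose by edgeR, where 1.97% of all tested genes did, and 3 fell, where 3.06% did. DESeq2 called 0 higher as well, and 3 were higher at an unadjusted p under 0.05. No member changed 1.5-fold, which 0.29% of all genes did. Dck fell by 0.26 (adjusted p = 0.0108 in edgeR), Impdh1 by 0.24 (adjusted p = 0.00327 in edgeR) and Nme1 by 0.22 (adjusted p = 0.0355 in edgeR) on the log2 scale. The 24 h libraries of all 3 lay below those of 12 h. The Dck call was lost without replicate 2 of 24 h (-0.26), and the Nme1 call without replicate 1 (-0.23) or 2 (-0.18) of 12 h, without replicate 1 or 2 of 24 h (both -0.19) and with scaling by total counts (-0.20). Without replicate 3 of 12 h, Gart (-0.15) and Uck2 (-0.12) passed as well, which brought the count to 5. The reductase and thymidylate genes did not pass in this comparison, with log2 fold changes of -0.037 for Rrm2, 0.012 for Rrm1, -0.025 for Tyms, -0.011 for Dut and 0.14 for Tk1.

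Summed over its genes, each role carried a different share of the nucleotide enzyme counts. The dNTP supply genes summed to 746 ± 24.2 CPM at 0 h, 1023 ± 33.5 CPM at 12 h and 1002 ± 33.7 CPM at 24 h (SD, n = 3), and every later library was above every 0 h library. Salvage genes summed to 775 ± 15.0, 857 ± 18.8 and 826 ± 19.0 CPM, again without overlap with 0 h. The purine genes summed to 1854 ± 14.8, 1849 ± 40.0 and 1801 ± 23.2 CPM, and the pyrimidine genes to 879 ± 11.6, 857 ± 19.0 and 855 ± 7.08 CPM. For both of these roles the 12 h libraries overlapped with 0 h, and every 24 h library was below every 0 h library. Of the summed CPM of the 33, dNTP supply held 17.5% at 0 h (17.1% to 17.9% by library), 22.3% at 12 h (22.01% to 22.8%) and 22.4% at 24 h (21.95% to 22.7%). The purine share was 43.6%, 40.3% and 40.2% at the 3 times. Long genes weigh more in these sums, which are not per length.

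**Figure D4:**
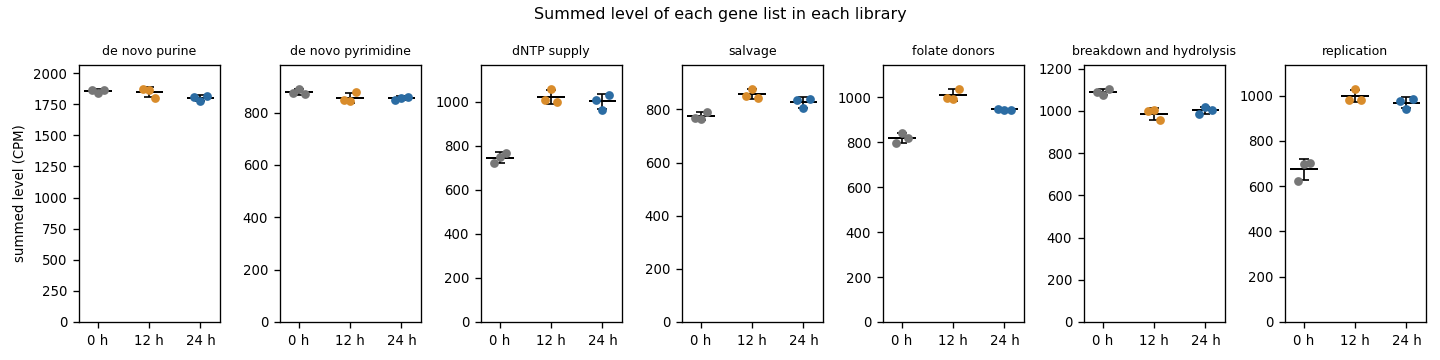
Summed CPM of the genes of each role and of 3 further lists in each library, by time with NRG1, with an axis from 0 in each panel. Points are libraries, lines means and bars the SD over 3 libraries. The dNTP panel goes from 746 to 1023 CPM at 12 h, the purine panel from 1854 to 1849 CPM, and the replication panel from 674 to 999 CPM.

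Related genes were compared within each library by the ratio of their counts. Rrm2 had 5.81, 6.06 and 6.70 counts per count of Rrm2b at 0 h, 10.2, 10.9 and 8.59 at 12 h and 10.3, 9.41 and 9.73 at 24 h, so all later libraries were above 0 h. The exact permutation test over the 3 times gave p = 0.0357 and 0.0714 after adjustment over the 6 pairs, and the smallest p that its 280 partitions allow is 0.00357. Uck2 to Uck1 went from 3.59 ± 0.178 to 4.25 ± 0.0892 and 3.85 ± 0.233 (SD, n = 3, exact permutation p = 0.0179, adjusted 0.0537). Impdh2 to Impdh1 went from 2.65 ± 0.0902 to 2.51 ± 0.120 and 2.897 ± 0.138 (exact permutation p = 0.0143, adjusted 0.0537). Prps1 to Prps2 stood at 1.69, 1.70 and 1.67 (exact permutation p = 0.886), Ctps to Ctps2 at 10.8, 10.3 and 9.94 (exact permutation p = 0.229) and Nme1 to Nme2 at 20.6, 19.0 and 17.8 (exact permutation p = 0.354). None of the 6 passed after adjustment.

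**Figure D5:**
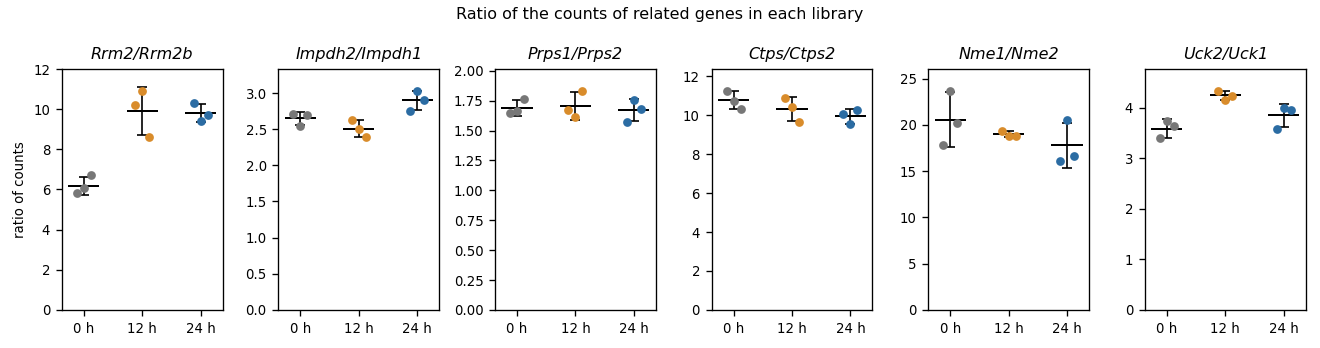
Ratio of the counts of 6 pairs of related genes in each library by time with NRG1, with an axis from 0 in each panel. Points are libraries, lines means and bars the SD over 3 libraries. Rrm2 to Rrm2b has means of 6.19, 9.91 and 9.82 at 0, 12 and 24 h, and Prps1 to Prps2 stays near 1.69.

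Genes next to these routes were read from further lists, chosen with earlier results of these data known. All 16 replication genes on the list rose at 12 h, where 13.6% of all tested genes did. All 16 rose at 24 h as well, where 9.67% did. Their medians were 0.55 and 0.54 on the log2 scale, and their part in the dNTP result was not tested. Among them Cdc6, which loads the replicative helicase, had log2 fold changes of 0.77 and 0.55, and Uhrf1, which carries DNA methylation through replication, of 0.66 and 0.67. Rrm2 and Rrm1, at 0.74 and 0.62 at 12 h, lay within the range of 0.40 to 0.77 of the replication genes. Mouse Myc, at 71.0 ± 3.50, 63.6 ± 8.54 and 75.0 ± 0.962 CPM, did not pass in edgeR in any comparison of 2 times. It passed the test of any difference among the 3 times (adjusted p = 0.0431 in edgeR), and at 24 h against 12 h DESeq2 called it higher, where the log2 fold change of 0.24 had an adjusted p of 0.0596 in edgeR. Reads of the human transgene were not separated from it here.

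Folate enzymes supply the 1-carbon units of purine rings and of thymine. Of 6 tested, 4 rose at 12 h, where 13.6% of all tested genes did, and 3 at 24 h, where 9.67% did. None fell by edgeR, by DESeq2 or at an unadjusted p under 0.05. By edgeR 11.9% of all tested genes fell at 12 h and 7.76% at 24 h. Mthfd2, a mitochondrial folate enzyme, rose from 106 ± 8.75 to 147 ± 11.3 and 148 ± 1.17 CPM (adjusted p = 1.66e-05 in edgeR and 1.4e-05). Mthfs was under the filter on low counts.

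Of 16 tested genes of nucleotide breakdown and hydrolysis, 2 rose and 3 fell at 12 h (DESeq2 called 1 higher and 3 lower), where 13.6% and 11.9% of all tested genes rose and fell. At 24 h 3 fell and 0 rose by edgeR or DESeq2, with 1 higher at an unadjusted p under 0.05. Samhd1, the enzyme that removes the triphosphate from dNTPs, was at 441, 426.5 and 438 CPM at 0 h, 358, 355 and 348 CPM at 12 h and 370.0, 383 and 365 CPM at 24 h. It lay below 0 h in all 6 later libraries, opposite in direction to Rrm1 and Rrm2, with log2 fold changes of -0.30 ± 0.034 at 12 h (adjusted p = 1.04e-05 in edgeR) and -0.22 ± 0.034 at 24 h (adjusted p = 0.000183 in edgeR). Xdh, which turns hypoxanthine to uric acid, fell by 0.62 ± 0.093 at 12 h (adjusted p = 0.000129 in edgeR) and 0.39 ± 0.091 at 24 h (adjusted p = 0.00645 in edgeR) on the log2 scale, from 17.5 ± 2.36 to 11.4 ± 0.849 and 13.3 ± 0.541 CPM. The rises at 12 h were Nudt1, which clears oxidized purine nucleotides, at 0.27 (adjusted p = 0.0268 in edgeR), and Pnp, purine nucleoside phosphorylase, at 0.20 (adjusted p = 0.0498 in edgeR). Neither passed at 24 h.

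Of 18 tested genes of interconversion and further salvage, 4 rose and 3 fell at 12 h (DESeq2 called 3 higher and 3 lower), against the same shares of all tested genes. At 24 h 2 fell and 0 rose by edgeR or DESeq2, with 1 higher at an unadjusted p under 0.05. The largest rises at 12 h were Adssl1, the muscle-type relative of Adss, at 0.32 (adjusted p = 0.00778 in edgeR), and the adenylate kinase family member Ak6 at 0.26 (adjusted p = 0.0278 in edgeR). The value of Ak6 is uncertain, because 56.5% of its exonic bases also belong to another protein-coding gene, Taf9, on the same strand. The largest falls were Ak1, a cytosolic adenylate kinase, at -0.33 at 12 h (adjusted p = 0.0108 in edgeR) and -0.30 at 24 h (adjusted p = 0.0273 in edgeR), and Uckl1, a relative of the uridine kinases, at -0.31 at 12 h (adjusted p = 0.0139 in edgeR). Adssl1 and Adss, which share an activity, thus passed in opposite directions at 12 h, at 20.9 ± 1.04 and 190.2 ± 2.61 CPM. Of 3 tested nucleoside transporters only Slc29a3, an equilibrative transporter of inner membranes, passed, with a fall of 0.35 at 12 h (adjusted p = 0.0341 in edgeR).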

How the data were processed

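RNA was measured by paired-end sequencing (150 bases) of TruSeq mRNA libraries from MyC-CaP cells, 3 at each of 0, 12 and 24 h with NRG1. Per the submitters' processing notes and the study's methods, the authors trimmed reads with Cutadapt, aligned them with STAR to GRCm38.p6 and counted them per gene with featureCounts, and the deposited table holds raw counts, unnormalized, for 15552 genes. Strand and multimapping settings were not given in the sources used here. The table held 0 other columns of sample values.

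Library groups and replicate numbers came from the sample titles. Counts were filtered with filterByExpr (11373 genes left), scaled by TMM and tested with edgeR 4.0.16 (R 4.3.3) in 1 quasi-likelihood fit over all 9 libraries, with Benjamini-Hochberg adjustment over all genes tested. SE is the log2 fold change divided by the root of F. A gene passed at an adjusted p of at most 0.05, and the study's added 1.5-fold call was counted too. The ratio of 6 gene pairs was tested by an exact permutation test of the F statistic, two-sided in effect. Gene spans and exon overlaps came from GENCODE M21 (GRCm38), in which the spans of all 33 members equal those in the deposited table. The fit was tested on simulated data.

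The 33 members and the further lists were chosen with earlier results of these data known. All 33 are reported. Values in every library are given for passing members with the 4 largest changes in their role and for both genes of each pair, and of each further list up to 2 passing genes with the largest rise and 2 with the largest fall (at least 1 CPM on average) are named. Dhodh and Dctpp1 values by library or mean, and those of other members, were given beside changed calls. Of the listed genes, Cda, Cmpk2, Dpys, Nme3, Nme4 and Slc28a2 were not analysed here, and some others are not reported here. Same-numbered libraries of different times did not deviate together in every pair, so replicate numbers were not used as a block. Alternatives were DESeq2 1.42.0, its size factors or total counts in edgeR, no filter, only the 2 times compared, the replicate block and leaving out each library.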

Additional observations from a re-analysis of the deposited data

Results flagged for a closer look

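Levels at 24 h and at 12 h differed for 3 of the 33 genes by the test of 24 h against 12 h itself (edgeR), in which time in the medium and time with NRG1 cannot be told apart. The log2 difference between 24 h and 12 h was -0.26 for Dck (edgeR adjusted p = 0.0108), which was above 0 h at both times. It was -0.24 for Impdh1 (edgeR adjusted p = 0.00327), which passed only at 24 h, below 0 h. It was -0.22 for Nme1 (edgeR adjusted p = 0.0355), which passed against 0 h at neither time. Of these, the call for Impdh1 held under every alternative run, and those for Dck and Nme1 did not.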

How the results depend on the processing

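DESeq2, DESeq2's size factors in edgeR, total counts, no filter, the fit of only the 2 times compared and the replicate block changed none of the counts of members by more than 1.5 times. Single calls changed under them for Dhodh at 12 h (gained with no filter, 0.18) and Nme1 at 24 h against 12 h (lost with total counts, -0.20). No member that passed changed sign under any alternative. Of the calls against 0 h, 12 of 14 at 12 h and 8 of 12 at 24 h held under every alternative, as did 1 of 3 at 24 h against 12 h. Leaving out 1 library at a time gave 1 to 2 members lower at 12 h (1 without replicate 3 of 0 h), 0 to 3 lower at 24 h (0 without replicate 2 and 1 without replicate 3 of 24 h), and 1 to 5 members passing at 24 h against 12 h, all lower (5 without replicate 3 of 12 h, 1 without replicate 2 of 24 h). These fits rest on fewer libraries. Members higher ranged from 11 to 14 at 12 h and from 8 to 9 at 24 h.

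The replicate numbers did not pair the libraries: correlations of the deviations of same-numbered libraries ran from -0.074 to 0.13, 1 of 9 pairs was over 0.1, and 4 of 9 libraries correlated best with one of their own number. With the replicate block 14 members passed at 12 h, 12 at 24 h and 3 at 24 h against 12 h, and it changed no call of a member. Nme2, at 2.40 CPM at 0 h, had the widest interval of the members that did not pass, and the reason was not tested.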
